A study of Mus musculus with 2 samples.

Results

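Mest, H19, Igf2, Igf2r, Meg3, Rian, Peg3, Plagl1, Grb10 and Cdkn1c are imprinted genes, expressed mainly from 1 parental copy, that act on growth before birth. These 10 genes, of 53380 features in the files, were followed here through endothelial cells of mouse nerve after injury and at rest. They were chosen by their known roles with the levels of these libraries already seen, above all the ratio of Mest between injured and intact nerve, so every value below is a description and carries no test. The data were single-cell RNA counts from adult mouse sciatic nerve, with 1 library for each of 2 conditions. The injured library came from the bridge, the tissue that forms at the lesion, 7 days after injury, and the intact library from uninjured nerves; nerves were pooled, in a number the labels do not give. In both, a Cdh5(PAC)-CreERT2 transgene, active in endothelium, had switched on an R26-TomatoLSL reporter. Cells positive for tdTomato and negative for CD45, a leukocyte protein, were sorted. Whether every sampled barcode carried the reporter was not tested. With 1 library per condition, effects of the animals, the sort or the library itself and of injury cannot be told apart, and the 95% intervals given after each value cover counting error only.

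Imprinted genes that raise growth are mostly expressed from the father's copy and those that restrain it from the mother's. Igf2 is a secreted growth factor, Igf2r is the receptor that clears it and also carries enzymes tagged with mannose 6-phosphate to lysosomes, Grb10 binds and damps insulin and IGF receptors, and Cdkn1c is an inhibitor of cyclin-dependent kinases. Mest codes for a hydrolase-like membrane protein, and Peg3 and Plagl1 for zinc finger proteins. H19, Meg3 and Rian are long non-coding RNAs, and in mice most genes of this set are high in fetal tissue and decline after birth. Counts of UMIs, the tagged molecules, do not tell the parental copies apart.

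Mest lies on the plus strand at chr6:30723547-30748465, H19 and Igf2 lie on the minus strand at chr7:142575529-142578143 and chr7:142650766-142666816, and Cdkn1c follows at chr7:143458339-143461050 on the minus strand (GRCm38). The Mest, H19 and Igf2 transcripts hold microRNAs, shown here because the host RNA is the only part of them that these libraries measured. Each is written 5′ to 3′ from RefSeq (GRCm38.p6), with the seed, bases 2 to 8, in capitals; the first pair lies within Mest, the second within H19 and the last within Igf2.
miR-335-5p: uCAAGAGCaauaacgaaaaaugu
miR-335-3p: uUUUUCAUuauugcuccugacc
miR-675-5p: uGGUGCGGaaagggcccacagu
miR-675-3p: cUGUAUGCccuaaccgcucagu
miR-483-5p: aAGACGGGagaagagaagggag
miR-483-3p: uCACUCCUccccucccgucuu
No seed was shared among these 6. Small RNAs were not measured, so nothing follows here about the level of any of them.

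The injured library held 2023 barcodes and 27157892 UMIs, and the intact library 1618 barcodes and 9401203 UMIs. The libraries shared 298 barcodes. A cell was left out where its barcode had at least 5 times its UMIs in the other library, which removed 48 injured and 100 intact endothelial cells. No endothelial cell lay near that limit: the highest ratio kept was 0.0146 in injured and 1.02 in intact, and the lowest left out was 24.9 in injured and 68.2 in intact. The 9 endothelial classes of the authors' annotation then held 1274 injured cells with a median of 11684 UMIs and 718 intact cells with a median of 4461 UMIs. All 10 pan-endothelial markers, Cdh5 and Pecam1 among them, were detected in both, at 6166.3 CPM (UMIs of the gene per 1000000 UMIs) in injured and 8742.4 CPM in intact.

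In the pooled endothelial classes, Mest had the highest log2 ratio, with 5 CPM added, of all 8268 measured genes. Measured genes were those with a mean of at least 10 CPM over both libraries. It stood at 410.0 CPM (401.2 to 419.0; 8196 UMIs) in injured endothelial cells, against 9.69 CPM (7.04 to 13; 44 UMIs) in intact ones. The ratio was 42.3 (31.5 to 58.3), or 4.82 on the log2 scale with 5 CPM added to both values. At least 1 Mest UMI was seen in 832 of 1274 injured cells, or 65.3% (62.6 to 67.9), against 36 of 718 intact cells, or 5.01% (3.54 to 6.87). The most seen in 1 cell was 178 UMIs in injured and 5 in intact. Copg2 overlaps Mest on the other strand by 912 bases and had 281 injured and 60 intact UMIs, and the strand setting of the counting is not stated in the labels or headers.

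The left-out cells bear on the intact level of Mest. The 100 intact cells whose barcode was deeper in the injured library held 65 Mest UMIs in 73568, or 883.5 CPM, which is above the pooled injured level. Most of these 100 were annotated EC_IMMAT, EC_PROLIF or EC_TIP, which were also among the injured classes highest in Mest. The 48 injured cells left out held 1 Mest UMI and were mostly EC_BAR, of which 36 of 83 injured cells were kept. With all left-out cells kept, Mest stood at 409.3 CPM in injured and 23.6 CPM in intact, a log2 ratio of 3.86. Without any cell of a shared barcode it stood at 339.1 CPM in injured and 11.4 CPM in intact, a log2 ratio of 4.39.

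**Figure D1:**
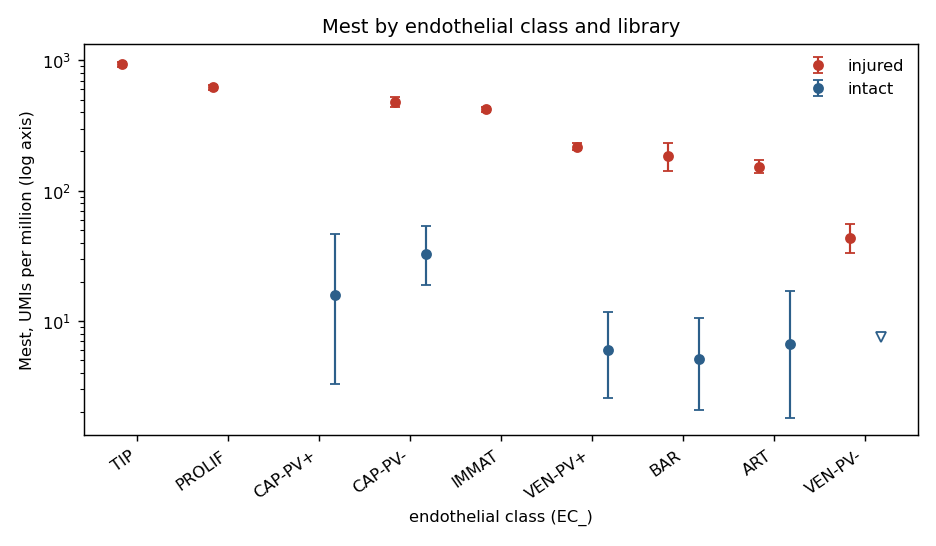
Mest in CPM on a log axis, for each endothelial class with at least 20 cells, in the injured (left of each pair) and the intact library. Bars are exact Poisson 95% intervals, the open triangle is the upper limit of a class with 0 UMIs, and injured EC_TIP is highest at 932.5 while no intact class exceeds 32.9.

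Within the injured library, Mest levels spanned a wide range among classes. EC_TIP, named for the tip cells that lead a vessel sprout, had 932.5 CPM (890.4 to 976.2; 100 cells) and EC_PROLIF, the proliferating class, 621.1 CPM (597.5 to 645.4; 162 cells). EC_CAP-PV-, a capillary class, followed with 480.1 CPM (439.1 to 523.8; 76 cells) and EC_IMMAT with 420.9 CPM (401.3 to 441.3; 260 cells). Among classes with at least 20 cells, EC_TIP, EC_PROLIF, EC_CAP-PV- and EC_IMMAT were the 4 highest and all lay above the venous, barrier and arterial classes.

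EC_VEN-PV+ had 218.3 CPM (205.3 to 232.0; 362 cells), EC_BAR 183.2 CPM (141.4 to 233.5; 36 cells) and EC_ART 152.6 CPM (136.1 to 170.5; 144 cells). EC_VEN-PV- was lowest at 43.2 CPM (33.1 to 55.4; 121 cells). The neighbours EC_VEN-PV+ and EC_BAR, and EC_BAR and EC_ART, did not differ beyond counting error. In EC_BAR 36 of the 65 UMIs lay in 1 cell, and EC_CAP-PV+ had 483.8 CPM from only 13 cells, with 27 of its 42 UMIs in 1 cell.

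In the intact library EC_CAP-PV- was the highest class with enough cells, at 32.9 CPM (18.8 to 53.5; 16 UMIs in 13 of 128 cells), and EC_CAP-PV+ came next at 15.9 CPM (3.29 to 46.6; 42 cells). EC_ART had 6.64, EC_VEN-PV+ 5.95 and EC_BAR 5.14 CPM, from 4, 8 and 7 UMIs, and EC_VEN-PV- had none in 44 cells, which allows up to 6.82% of cells with a detected UMI at this depth and does not limit the share of cells that express the gene. The intervals of all intact neighbours in that order overlapped. Intact EC_TIP, EC_IMMAT and EC_PROLIF kept only 4 of 21, 4 of 52 and 11 of 38 annotated cells, since the rest had shared barcodes of the kind left out. One of the 4 intact EC_TIP cells held 5 Mest UMIs.

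Mest was higher in injured than in intact cells in each of the 5 classes with at least 20 cells in both libraries. By log2 ratio within a class, Mest ranked 1 of 8108 measured genes in EC_VEN-PV+, 8 of 8156 in EC_CAP-PV- and 9 of 8137 in EC_ART. In EC_BAR it ranked 10 of 7951 and in EC_VEN-PV- 30 of 8030. The ratio was 36.7 (18.6 to 85.3) in EC_VEN-PV+, 35.6 (16.3 to 92.1) in EC_BAR, 23.0 (8.89 to 84.9) in EC_ART and 14.6 (8.89 to 25.7) in EC_CAP-PV-. In EC_VEN-PV- it was at least 7.08, against the limit of 3 UMIs that a count of 0 allows over the group. The EC_BAR ratio rested in large part on 1 cell, which held 36 of the 65 injured UMIs. With these 5 classes weighted equally, Mest stood at 215.5 CPM in injured and 10.1 CPM in intact, a log2 ratio of 3.86.

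**Figure D2:**
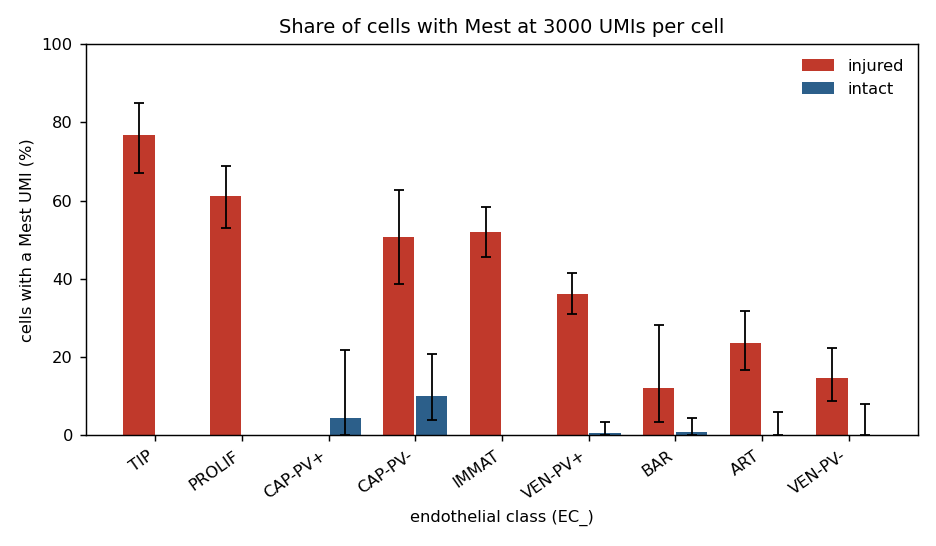
Percent of cells with at least 1 Mest UMI after each cell was thinned at random to 3000 UMIs, by endothelial class with at least 20 such cells, injured left and intact right. Bars carry exact binomial 95% intervals; injured EC_TIP reaches 76.8% and no intact class exceeds 10.2%.

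Since the injured cells held more UMIs per cell, shares of cells were also counted at an equal depth of 3000 UMIs per cell. This left out 51 injured and 236 intact cells. Mest was then found in 523 of 1223 injured cells, or 42.8% (40.0 to 45.6), against 10 of 482 intact cells, or 2.07% (0.999 to 3.78). EC_TIP and EC_PROLIF were again the highest injured classes, with Mest in 76.8% (67.1 to 84.9) and 61.1% (53.1 to 68.8) of cells. At the low end EC_BAR, which lay above EC_ART and EC_VEN-PV- by CPM, had the lowest share at 12.1% (3.40 to 28.2), with EC_VEN-PV- at 14.7% (8.78 to 22.4) and EC_ART at 23.7% (16.7 to 31.9), all with overlapping intervals. In intact EC_CAP-PV- the share was 10.2% (3.82 to 20.8), and in intact EC_ART none of 60 cells had a UMI. As a background group, unannotated barcodes with mostly pericyte and smooth muscle markers had a Mest UMI in 5 of 45 injured and 0 of 26 intact barcodes, at median depths of 8407 and 3075.5 UMIs. No barcode had as many as 4 of the myeloid markers, so no leukocyte group could serve for this.

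Mest was uneven from cell to cell within a class. The median injured EC_TIP cell held 8 Mest UMIs, or 585.1 CPM of its own UMIs, and the highest 5401.6 CPM. The median injured EC_PROLIF cell held 8.5 UMIs, EC_IMMAT 3 and EC_VEN-PV+ 1, at median per-cell levels of 429.9, 272.3 and 99.6 CPM. These UMI counts are not at equal depth, since the median cell had 24212.5 UMIs in EC_PROLIF and 16011.5 in EC_TIP. In EC_ART, EC_BAR and EC_VEN-PV- the median cell held 0. The 1% of injured cells with the most Mest held 15.4% of its UMIs, and without them and their intact counterparts the levels were 358.5 CPM in injured and 6.27 CPM in intact.

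Cells in cycle had more Mest, though most Mest UMIs lay outside them. Among injured cells thinned to 3000 UMIs, the 159 with at least 2 different G2/M genes had 229 Mest UMIs, or 480.1 CPM, against 975 UMIs, or 305.5 CPM, in the other 1064, a ratio of 1.57 (1.36 to 1.82). Without EC_PROLIF the pooled Mest log2 ratio was 4.62. Cdkn1c went the other way in these cells, at 16.8 CPM in cycling and 39.8 CPM in other injured cells, a ratio of 0.422 (0.178 to 0.856). The shares of cells with Mest had overlapping intervals with and without another member: 45.6% (40.4 to 50.9) of cells with Grb10 and 41.5% (38.2 to 44.9) without, and 39.8% (30.7 to 49.5) of cells with Cdkn1c and 43.1% (40.1 to 46.0) without.

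Barcodes that the authors did not annotate were grouped by which fixed marker set they held most of, with at least 1000 UMIs and 4 markers. Where pan-endothelial markers led, Mest stood at 505.4 CPM (478.3 to 533.6; 98 barcodes) in injured and 12.3 CPM (5.32 to 24.3; 61 barcodes) in intact. The injured level lay above the 410.0 CPM (401.2 to 419.0) of the annotated endothelium, with 207 of its 1304 UMIs in 1 barcode. In intact the intervals overlapped. With lymphatic endothelial markers it was 240.3 CPM (182.0 to 311.3; 20 barcodes) in injured and 20.9 CPM (10.0 to 38.4; 95 barcodes) in intact. Mest was seen in 8 of these 20 injured barcodes. The barcode with the most Mest held 36 of their 57 UMIs, so the injured level rested in large part on it. In the injured library, barcodes with markers of other cell types had less Mest than the pooled endothelium, while in the intact library the intervals overlapped. Mest stood at 42.8 CPM in injured and 6.05 CPM in intact with fibroblast markers, 55.2 CPM in injured and 11 CPM in intact with perineurial markers, and 21.3 CPM in injured and 0 in intact with pericyte and smooth muscle markers.

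Over the 16 groups formed by an annotated class, INTERMEDIATE included, in 1 library with at least 20 cells, the genes most like Mest on the log2 scale were Col4a1, a chain of basement membrane collagen, with a Pearson r of 0.947, AA467197 (0.942), Prelid1 (0.941), Mtch1 (0.940) and Ap1s1 (0.937). Groups of 1 library share its depth and preparation, and over the 9 injured groups alone the values were 0.858, 0.780, 0.803, 0.866 and 0.817 in the same order. By the same measure, the genes most like Igf2r included Agtrap (0.899) and Stat5b (0.839), and those most like Cdkn1c were Kif26a (0.853), Serinc1 (0.834) and Ecm2 (0.832). Those most like Grb10 were Spats2 (0.778), Bop1 (0.774) and Usp10 (0.756), with 0.363, 0.331 and 0.382 over the injured groups alone. For the rarer members, whose group values rest on few UMIs, they were Ccl2 (0.866), Ap2a2 (0.865) and Ttc39b (0.792) for H19, Ints6l (0.811), Wdr48 (0.808) and Ist1 (0.803) for Igf2, Fbxw8 (0.709), Nisch (0.668) and Gpx4-ps2 (0.667) for Peg3, and Vcan (0.853), Ccl2 (0.844) and Atrx (0.842) for Plagl1.

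**Figure D3:**
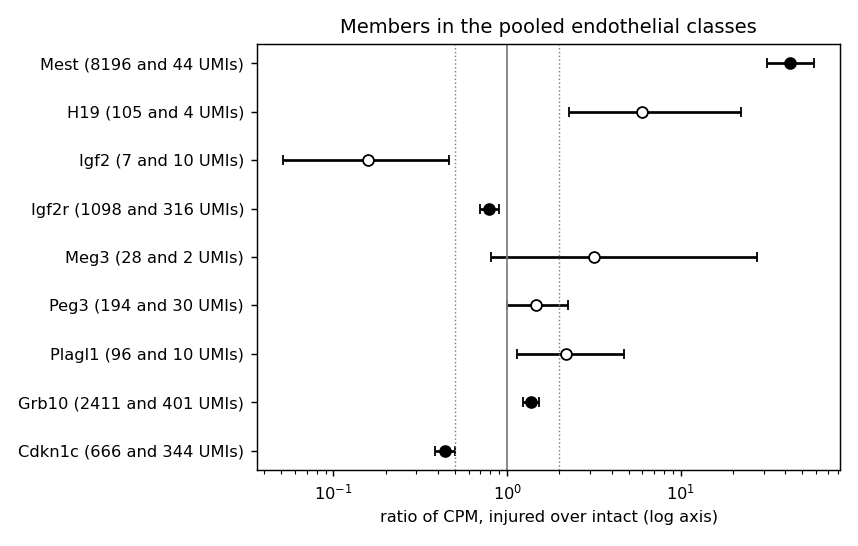
Ratio of CPM, injured over intact, in the pooled endothelial classes on a log axis, with exact 95% counting intervals. Filled points have a mean of at least 10 CPM, dotted lines mark 2-fold, and Rian, with 12 injured and 0 intact UMIs, has no ratio; Mest lies at 42.3 and Cdkn1c at 0.440.

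Of the 10 members, 4 were measured in the pooled endothelium: Mest, Igf2r, Grb10 and Cdkn1c. By the size rule of at least 2-fold, 1 was higher in injured cells (Mest) and 1 lower (Cdkn1c), where over all measured genes 4.79% were higher and 6.82% lower. The other 6 were rare RNAs in these cells, at 9.71 CPM or less in both libraries.

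Igf2 gave almost no signal in endothelium. Its 7 UMIs in 1274 injured cells and 10 UMIs in 718 intact cells each lay in a different cell, at 0.350 CPM (0.141 to 0.722) in injured and 2.20 CPM (1.06 to 4.05) in intact. Of these, 6 in each library lay in EC_ART. It was also low outside the endothelium, the highest being 12.1 CPM (7.07 to 19.4) in injured barcodes with fibroblast markers.

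H19, next to Igf2 on the chromosome, was at 5.25 CPM (4.30 to 6.36; 105 UMIs in 37 cells) in injured endothelium and 0.881 CPM (0.240 to 2.25; 4 UMIs in 4 cells) in intact, a ratio of 5.96 (2.26 to 22.3). This rested on few cells, since 7 injured cells with at least 3 H19 UMIs each held 72 of the 105. Of these 7, 5 were EC_ART cells with 47 UMIs, and EC_ART as a class had 26.6 CPM (54 UMIs in 10 of 144 cells) in injured and 0 UMIs in 91 intact cells, a ratio of at least 5.34. The 7 cells held 45 to 262 pan-endothelial marker UMIs each, against 0 to 11 perineurial, 0 to 6 pericyte and smooth muscle and 0 to 2 fibroblast marker UMIs. The perineurial list includes Slc2a1, a gene also of barrier endothelium, and the part of these marker UMIs in the H19 counts was not tested.

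H19 was abundant in other cell types of the sort. In injured barcodes with fibroblast markers it stood at 1499.4 CPM (1436.0 to 1565.0; 91 of 104 barcodes), against 296.4 CPM (219.3 to 391.9; 6 of 38 barcodes) in intact ones, a ratio of 5.06 (3.81 to 6.86). These shares of barcodes are not at equal depth, with medians of 10762 UMIs in injured and 2367 in intact, and 18 of the 49 intact H19 UMIs lay in 1 barcode. In barcodes with perineurial markers H19 stood at 872.8 CPM (830.3 to 916.9) in injured and 123.6 CPM (111.3 to 136.8) in intact, a ratio of 7.06 (6.30 to 7.93). Barcodes of this second group also held many fibroblast marker UMIs, at 31359.6 CPM in injured and 17176.3 CPM in intact. In the annotated class INTERMEDIATE, 59 of 60 injured H19 UMIs lay in 1 cell.

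Meg3 and Rian, which are transcribed one after the other on chromosome 12, followed the same division. In annotated endothelium Meg3 had 28 UMIs, or 1.40 CPM (0.931 to 2.02), in injured and 2 UMIs, or 0.440 CPM (0.0533 to 1.59), in intact, and Rian had 12 UMIs in injured and none in 718 intact cells, which allows up to 0.418% of cells with a detected UMI at the intact depth. With pericyte and smooth muscle markers, Meg3 stood at 1835.1 CPM (1714.7 to 1961.8; 44 of 45 barcodes) in injured and 478.3 CPM (351.4 to 636.0; 15 of 26 barcodes) in intact, and Rian at 423.2 CPM (366.4 to 486.2) in injured and 20.4 CPM (2.46 to 73.5) in intact. The Meg3 shares of barcodes were not taken at equal depth. With fibroblast markers, Meg3 was at 951.8 CPM in injured and 181.5 CPM in intact, and Rian at 181.4 CPM in injured and 30.2 CPM in intact.

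Unannotated barcodes led by pan-endothelial markers differed from the annotated classes in Meg3, with 376.3 CPM (353.0 to 400.8) in injured and 241.8 CPM (205.5 to 282.8) in intact. The 45 injured barcodes of this kind with Meg3 also held pericyte and smooth muscle markers at 3751.9 CPM and fibroblast markers at 3385.4 CPM, against 215.2 and 719.0 CPM in the 53 without it. No doublet caller was run, and whether these are 2 cells in 1 droplet was not tested.

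**Figure D4:**
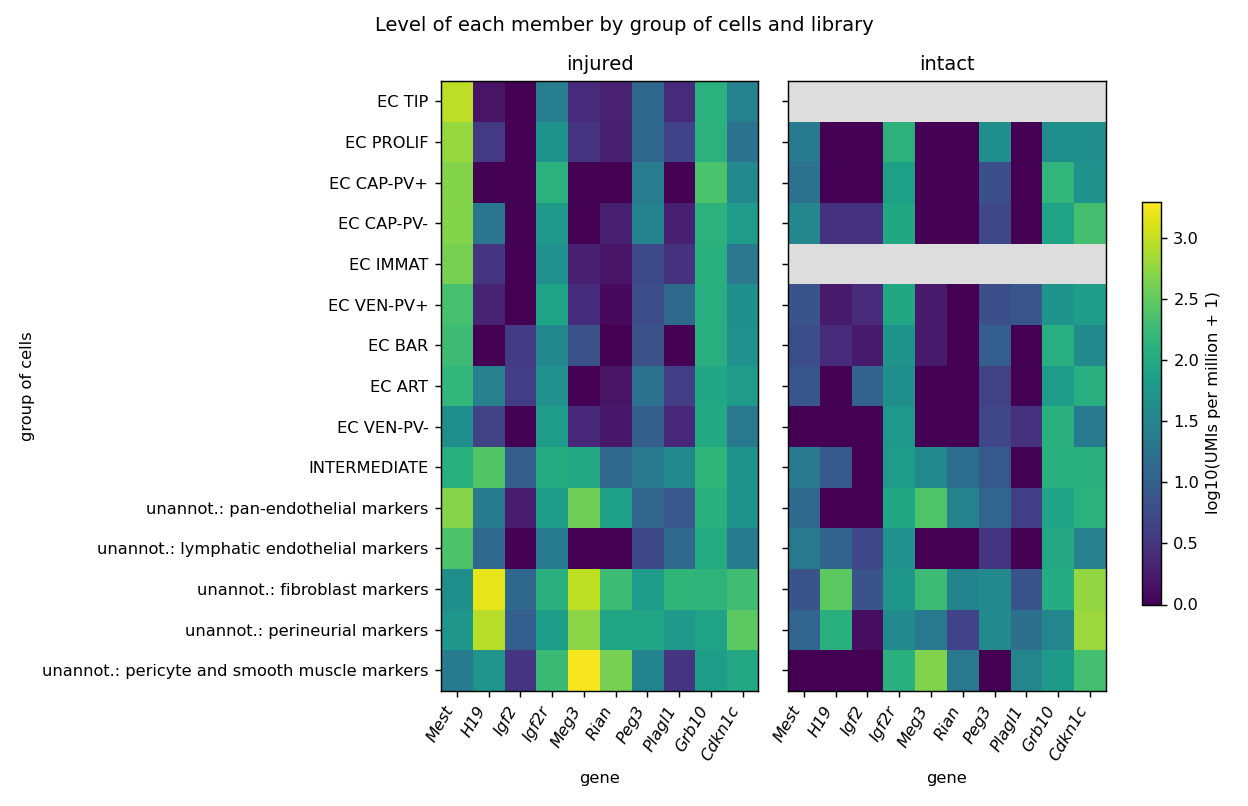
Level of the 10 members, as log10 of CPM plus 1, in each endothelial class, in INTERMEDIATE and in unannotated barcodes grouped by leading markers, for the injured (left) and intact (right) library. Grey rows had fewer than 10 cells; injured Mest reaches 932.5 CPM in EC_TIP, injured H19 1499.4 CPM with fibroblast markers and injured Meg3 1835.1 CPM with pericyte and smooth muscle markers.

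Peg3 was at 9.71 CPM (8.39 to 11.2) in injured and 6.6 CPM (4.46 to 9.43) in intact endothelium, a ratio of 1.47 (0.997 to 2.24) whose interval reached below 1. Its highest injured class with at least 20 cells was EC_CAP-PV-, at 28.5 CPM (19.2 to 40.7) against 4.12 CPM (0.499 to 14.9) in intact, a ratio of 6.93 (1.76 to 59.8). In EC_ART it stood at 15.8 CPM in injured and 3.32 CPM in intact, with 17 of the 32 injured UMIs in 1 cell, and in EC_VEN-PV+ at 5.05 CPM in injured and 5.20 CPM in intact. Barcodes with perineurial markers had more, at 85.0 CPM (72.1 to 99.6) in injured and 36.9 CPM (30.3 to 44.4) in intact.

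Plagl1, a transcription factor that in mice acts on other imprinted genes, had most of its endothelial UMIs in 1 of the venous classes, EC_VEN-PV+. It stood at 4.80 CPM (3.89 to 5.86; 96 UMIs) in injured and 2.20 CPM (1.06 to 4.05; 10 UMIs) in intact, and EC_VEN-PV+ held 61 of the 96 injured and 9 of the 10 intact UMIs. The other venous class, EC_VEN-PV-, had 2 UMIs, or 1.39 CPM, in injured and 1 UMI, or 2.03 CPM, in intact. Within EC_VEN-PV+ the levels were 12.8 CPM (9.81 to 16.5) in injured and 6.69 CPM (3.06 to 12.7) in intact, with overlapping intervals. With fibroblast markers it stood at 142.1 CPM (123.0 to 163.3) in injured and 6.05 CPM (0.153 to 33.7; 1 UMI) in intact.

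Igf2r was found in many cells of both libraries, at 54.9 CPM (51.7 to 58.3) in injured and 69.6 CPM (62.1 to 77.7) in intact, 1.27-fold lower (1.11 to 1.44) in the pooled injured cells. Among classes with at least 20 cells in both libraries, only EC_CAP-PV- had an interval below 1, with a ratio of 0.640 (0.428 to 0.966). The ratio was 0.860 (0.702 to 1.06) in EC_VEN-PV+, 0.677 (0.333 to 1.26) in EC_BAR, 1.06 (0.681 to 1.71) in EC_ART and 1.13 (0.731 to 1.79) in EC_VEN-PV-. The class with the most Igf2r, among those with at least 20 cells, was EC_VEN-PV+ in both libraries, at 81.8 CPM (73.9 to 90.4) in injured and 95.2 CPM (79.4 to 113.2) in intact. Injured EC_TIP, the class highest in Mest, had the lowest injured Igf2r value at 24.9 CPM (18.4 to 32.9), with the interval of EC_BAR (33.8 CPM; 17.5 to 59.1) overlapping it. At equal depth Igf2r was found in 16.1% (14.1 to 18.3) of injured and 18.5% (15.1 to 22.2) of intact cells. The antisense RNA Airn overlaps Igf2r by 28354 bases and had 76 injured and 29 intact UMIs, with the same limit on strand.

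Grb10 was moderately higher after injury, at 120.6 CPM (115.8 to 125.5) against 88.3 CPM (79.9 to 97.4) in intact, a ratio of 1.37 (1.23 to 1.52). The difference was largest in EC_VEN-PV+, at 118.0 CPM (108.4 to 128.2) in injured and 50.6 CPM (39.3 to 64.1) in intact, a ratio of 2.33 (1.81 to 3.05). In EC_CAP-PV- the ratio was 1.62 (1.13 to 2.38) and in EC_ART 1.51 (1.06 to 2.19). EC_BAR had 121.2 CPM in injured and 119.0 CPM in intact, and EC_VEN-PV- 101.7 CPM in injured and 121.9 CPM in intact, differences within counting error. Injured classes with at least 20 cells lay between 95 CPM in EC_ART and 130.4 CPM in EC_PROLIF for Grb10. Intact classes with at least 20 cells ran between 50.6 CPM in EC_VEN-PV+ and 148.8 CPM (98.9 to 215.1) in EC_CAP-PV+. Injured EC_CAP-PV+, under that cell limit, had 230.4 CPM (140.7 to 355.8) from 20 UMIs in 13 cells.

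**Figure D5:**
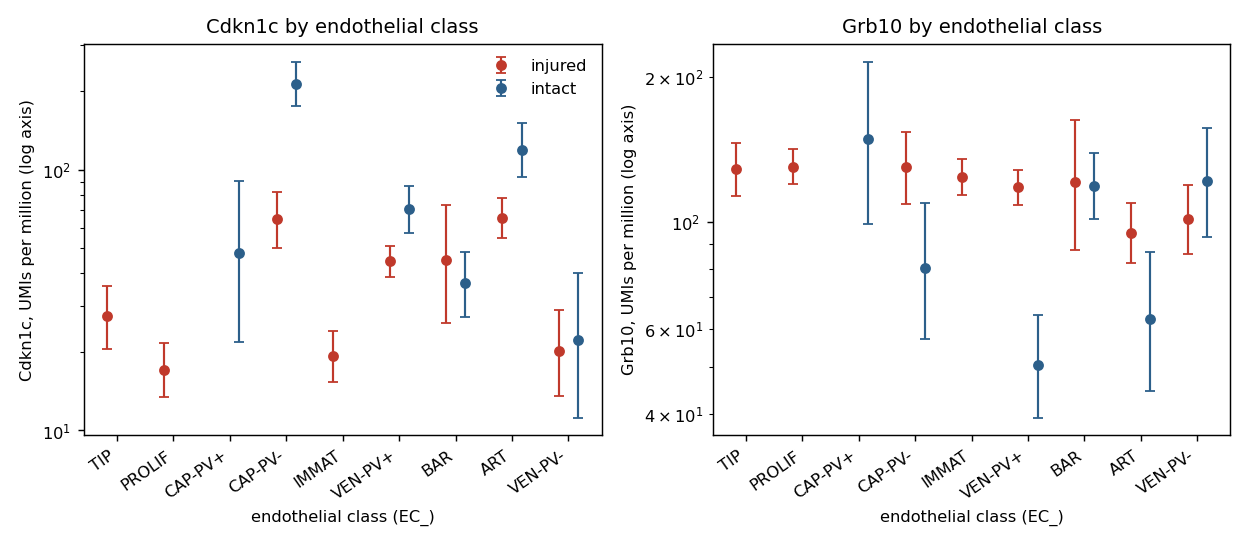
Cdkn1c and Grb10 in CPM on log axes by endothelial class with at least 20 cells, injured left of intact, with exact Poisson 95% intervals. Intact EC_CAP-PV- stands out for Cdkn1c at 214.1 against 64.6 in injured, and intact EC_VEN-PV+ for Grb10 at 50.6 against 118.0 in injured.

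Cdkn1c, the brake on the cell cycle, was lower in injured endothelium. It stood at 33.3 CPM (30.8 to 35.9; 666 UMIs) in injured and 75.7 CPM (67.9 to 84.2; 344 UMIs) in intact, 2.27-fold lower (1.99 to 2.59) in injured and -1.08 on the log2 scale. EC_CAP-PV- had 64.6 CPM (50.2 to 82.0) in injured and 214.1 CPM (174.9 to 259.4) in intact, 3.31-fold lower (2.42 to 4.56). EC_ART had 65.5 CPM in injured and 119.5 CPM in intact, 1.83-fold lower (1.35 to 2.45), and EC_VEN-PV+ 44.6 CPM in injured and 70.6 CPM in intact, 1.58-fold lower (1.23 to 2.03). EC_BAR had 45.1 CPM in injured and 36.7 CPM in intact, and EC_VEN-PV- 20.2 CPM in injured and 22.3 CPM in intact, both within counting error.

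The injured classes with the least Cdkn1c were EC_PROLIF at 17.1 CPM (13.4 to 21.6), EC_IMMAT at 19.3 CPM (15.3 to 24.0) and EC_VEN-PV-, with overlapping intervals, and the first 2 of these had few intact cells. Without EC_PROLIF the Cdkn1c log2 ratio was -0.93 and with the 5 shared classes weighted equally -0.88, so the 2-fold call was lost. At equal depth Cdkn1c was found in 9.24% (7.68 to 11) of injured and 19.5% (16.1 to 23.3) of intact cells. Perineurial markers and pericyte and smooth muscle markers moved with it: 8 of 8 perineurial markers were detected in both libraries, at 147.5 CPM in injured and 603.0 CPM in intact endothelium, and 9 of 10 pericyte and smooth muscle markers, at 220.1 CPM in injured and 1063.8 CPM in intact. Their part in the result was not tested. Unannotated barcodes with perineurial markers had Cdkn1c at 290.4 CPM (266.1 to 316.3) in injured and 632.9 CPM (604.8 to 662.0) in intact.

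Set beside these members, a list of 56 further imprinted genes held 21 measured ones. Of these, 1 was at least 2-fold higher and 4 were at least 2-fold lower, where over all measured genes 4.79% were higher and 6.82% lower. Their median log2 ratio was 0.04, equal to that of all measured genes. The higher one was Sgce, a sarcoglycan, at 39.2 CPM in injured and 16.7 CPM in intact, a ratio of 2.34 (1.85 to 3.0). The 4 lower ones were Dcn, a matrix proteoglycan also used here as a fibroblast marker, at 8.20 CPM in injured and 46.2 CPM in intact, Atp10a, a lipid flippase, at 5.40 CPM in injured and 30.8 CPM in intact, Peg13, a non-coding RNA, at 17.2 CPM in injured and 52.2 CPM in intact, and Inpp5f, an inositol phosphatase, at 12.6 CPM in injured and 37.6 CPM in intact.

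Lists of genes that work with Igf2, Igf2r and Grb10 are read against the 4.79% of all measured genes that were higher and the 6.82% that were lower. Of 17 measured genes of IGF and insulin signalling 0 were higher and 1 was lower: Grb14, an adaptor related to Grb10, at 2.60 CPM in injured and 56.6 CPM in intact, 21.7-fold lower (16.1 to 29.9). Of 5 measured IGF binding proteins and proteases 2 were higher and 1 was lower: Igfbp4 stood at 602.4 CPM in injured and 267.9 CPM in intact, Igfbp3 at 191.5 CPM in injured and 88.3 CPM in intact, and Igfbp6 at 12.2 CPM in injured and 44.7 CPM in intact. Of 17 measured genes of mannose 6-phosphate sorting and its lysosomal cargo 3 were higher and 0 lower. They were the proteases Lgmn, at 412.0 CPM in injured and 96.9 CPM in intact, Ctsl, at 659.1 CPM in injured and 251.4 CPM in intact, and Ctsb, at 444.1 CPM in injured and 185.6 CPM in intact.

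Among 8 measured inhibitors of the Cip/Kip family and their partners 1 was higher and 2 were lower, against 4.79% and 6.82% of all measured genes. Cdk4, a kinase of the G1 phase, stood at 161.6 CPM in injured and 56.1 CPM in intact. Cdkn1a, a sister inhibitor of Cdkn1c, stood at 79.1 CPM in injured and 211.1 CPM in intact, and Ccnd2, a D-type cyclin, at 46.7 CPM in injured and 492.0 CPM in intact. Among 6 measured genes that maintain imprints, 1 was higher and 0 were lower, read against the same shares. It was Dnmt1, the maintenance DNA methyltransferase, at 44.1 CPM in injured and 18.7 CPM in intact, a ratio of 2.36 (1.88 to 2.98). The values of both lists are for the pooled endothelial classes, where EC_PROLIF held 162 injured and 11 intact cells. The part of this class mix in them was not tested.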

How the data were processed

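Per the file headers and the submitters' processing notes, reads were processed with Cell Ranger (versions 3.0.2 and 6.1.2 are named) and Seurat 4.0.1 against mm10 (GRCm38), and the authors deposited UMI counts per feature and barcode for 2 libraries with a cell annotation. Feature IDs were matched to the GENCODE annotation by ID, 53274 of 53380. UMIs of each gene were summed over the cells of each annotated class and library and given as CPM (UMIs of the gene per 1000000 UMIs of the group). A cell was left out where its barcode had at least 5 times its UMIs in the other library. No doublet caller was run here and no doublets were removed.

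With 1 library per condition no test was possible. A gene was called at 2-fold or more on the log2 scale with 5 CPM added, among genes whose mean over the libraries reached 10 CPM. Intervals are exact Poisson for levels, exact binomial (Clopper-Pearson) for shares and exact conditional for ratios, all at 95%. They cover counting error only. A count of 0 was given the limit of 3 counts. Shares were repeated after thinning each cell to 3000 UMIs. Unannotated barcodes with at least 1000 UMIs were put with the marker set of which they detected the highest share, at least 4 markers, and ties stayed unresolved. The genes most like a member were those with the highest Pearson correlation over 16 groups, with a mean of at least 20 CPM.

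The members and lists were chosen with earlier results of these data known. The genes named outside the members are those past the 2-fold limit in each list, at most 3 in each direction, and those most like a member in pattern, 5 for Mest and 3 for each other member with at least 50 UMIs, and for Igf2, leaving out mitochondrial, ribosomal protein, Gm and Rik genes; 1 gene that this rule names is not reported here. The calling steps were tested on simulated data. Computation used Python 3.11.15, numpy 2.4.6, scipy 1.17.1, pandas 2.3.3 and matplotlib 3.10.9.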

Additional observations from a re-analysis of the deposited data

Results flagged for a closer look

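Several members, but not all, were above their intact level in injured barcodes that the authors' annotation leaves out. The rule for this flag could pick only values higher in injured barcodes. With fibroblast markers, H19 stood at 1499.4 CPM, Meg3 at 951.8 CPM, Rian at 181.4 CPM and Plagl1 at 142.1 CPM in injured barcodes, against 296.4, 181.5, 30.2 and 6.05 CPM in intact ones. With perineurial markers, H19 stood at 872.8 CPM and Meg3 at 536.1 CPM in injured barcodes, against 123.6 and 20.3 CPM in intact ones. With pericyte and smooth muscle markers, Meg3 stood at 1835.1 CPM and Rian at 423.2 CPM in injured barcodes, against 478.3 and 20.4 CPM in intact ones. With pan-endothelial markers, Meg3 stood at 376.3 CPM in injured barcodes and 241.8 CPM in intact ones. Cdkn1c, which the rule could not flag, was lower in injured barcodes of these same groups. It stood at 191.4 CPM against 586.8 CPM in intact with fibroblast markers and 290.4 against 632.9 CPM with perineurial markers. With pericyte and smooth muscle markers it was 95.7 against 203.5 CPM, and with pan-endothelial markers 46.9 against 126.3 CPM.

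Plagl1 went in opposite directions in 2 of these groups: its log2 ratio was 3.73 with fibroblast markers and -2.32 with pericyte and smooth muscle markers, where it rested on 1 injured and 3 intact UMIs. This difference was not tested.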

How the results depend on the processing

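The pooled Mest log2 ratio of 4.82 stayed above 2-fold under all 12 alternatives, between 3.86 and 5.27. It was 3.86 with all annotated cells kept, with classes weighted equally and with 20 CPM added, 4.39 without any shared barcode and 3.99 over all barcodes. Over all barcodes, which adds unannotated barcodes, INTERMEDIATE and the cells left out, 4 members were at least 2-fold higher (Mest, H19, Meg3 and Rian). Of these, H19, Meg3 and Rian were at only 5.25, 1.40 and 0.600 CPM in the pooled injured endothelium. Shares of all genes called were computed only for the pooled classes as first given, not for these alternatives. Cdkn1c was the only member called lower, and 0 were called with cells of at least 3000 UMIs (-0.97), equal class weights (-0.88), EC_PROLIF left out (-0.93) or 20 CPM added (-0.84); its range was -2.0 to -0.84. Igf2r, -0.32 in the pooled classes, was 0.10 over all barcodes. Of the further imprinted genes, 0 were called higher without shared barcodes, after thinning, with per-cell means, equal class weights, 20 CPM added or scaling by the median ratio, and 2 were called lower with 20 CPM added and 7 over all barcodes. Of IGF and mannose 6-phosphate genes, 3 were called higher over all barcodes, against 5. Among the members' log2 ratios, 98 of 120 alternative values moved by less than their counting interval. Shares of cells moved in 45 of 56 cases under thinning, a step that takes UMIs out of cells and so can only lower detection in each of them. The causes of the other moves were not tested. The median over all genes lay between -0.02 and 0.05 in these settings. No paired analysis was possible because each condition had 1 library. Members under 10 CPM rest on at most 194 UMIs per library, which limits what can be seen by class.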
